A study of Drosophila melanogaster with 8 samples.

Results

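The antimicrobial peptide genes CecB, DptB, AttD, Mtk, Drs, Def, Dro and edin were read in adult heads of 4 WT and 4 HEXIM knockdown samples. Members were the probe sets annotated to one of these 8 symbols alone, and 7 of the 8 genes had such a probe set, 1 each, among 18769 probe sets tested. Dro, which encodes drosocin, was not analysed here, because no probe set carries its name alone in the annotation used. The WT flies were of the W118 strain and carried neither transgene. The HEXIM knockdown flies, labelled with the same strain, carried GMR-Gal4 and a UAS hairpin transgene against Hexim, and the labels give 29°C for the rearing of both groups. Each sample was total RNA pooled from many whole heads, and the 4 samples of each group are labelled as biological replicates. GMR-Gal4 is active in the differentiating cells of the eye, whereas whole heads also hold brain, fat body, muscle and cuticle. In RNA of whole heads, more expressing cells and more RNA per cell cannot be told apart. The HEXIM knockdown flies differ from WT in the driver and the transgene as well as in Hexim, and these cannot be told apart here.

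In flies, bacterial and fungal infection is met by small secreted peptides made mainly in the fat body, the insect counterpart of liver and adipose tissue, which also lies in the head. Peptidoglycan of Gram-negative bacteria is read by the Imd pathway, which ends in the NF-kB factor Relish, whereas the Toll pathway is switched on by the cytokine Spätzle and ends in the NF-kB factors Dorsal and Dif. Cecropins, diptericins, attacins and drosocin are known mainly as Imd targets, drosomycin mainly as a Toll target, and metchnikowin and defensin respond to both. The peptides are made at lower levels in unchallenged than in infected flies and are also induced by tissue damage. In the WT heads here their levels were not all low. The mean of Drs was at or above those of 89.8% of probe sets, that of Mtk 75.1% and that of AttD 6.71%.

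Levels are log2 signals, on which a difference of 1 is a doubling. The arrays were alike in scale, with medians between 5.43 and 5.57 and correlations between 0.974 and 0.997. In the GAPDH and Act5C control probe sets, the log2 level of the middle minus that of the 3' end was lowest in WT replicate 1 (-2.97), WT replicate 3 (-3.20) and HEXIM knockdown replicate 4 (-3.16), against -2.29 to -2.01 in the other 5 arrays. A low value is a sign of shorter cDNA or RNA, and low arrays were found in both genotypes. Hexim itself, the targeted gene, stood at 7.79 to 8.14 in WT and at 7.52 to 7.77 in HEXIM knockdown heads, a difference of -0.33 on the log2 scale (SE 0.10), for which limma gave an adjusted p of 0.418. This probe set may also read the hairpin. Photoreceptor, neuron, glia and muscle markers were present in both groups, and none of them passed the test. The log2 summed signal of the 10 photoreceptor markers measured of 17 was 15.66 to 15.90 in WT and 15.50 to 15.73 in HEXIM knockdown arrays. The groups did not overlap for the glial gene moody (-0.60, adjusted p = 0.0730 from limma) and the photoreceptor genes trpl (-0.29) and Rh7 (0.34).

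All 7 measured antimicrobial peptide genes had a higher mean in HEXIM knockdown than in WT heads, with log2 fold changes from 0.77 (edin) to 3.15 (CecB) and a median of 1.63, whereas the median over all probe sets was -0.02 and 44.6% of them were positive. None of the 7 passed the test at an adjusted p under 0.05 from limma, where 0.256% of all probe sets did (48, 0.144% higher and 0.112% lower). At an unadjusted p under 0.05, 6 of the 7 were higher, against 2.84% of all probe sets (7.24% in either direction), and edin was not. In 4 of the 7, CecB, DptB, AttD and Mtk, every HEXIM knockdown array lay above every WT array, a pattern shown by 1.99% of all probe sets (5.35% had no overlap in either direction). HEXIM knockdown replicate 1 was the highest of the 8 arrays for all 7 genes, as it was for 13.7% of all probe sets, and was the highest of its own group for 22.4%.

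**Figure D1:**
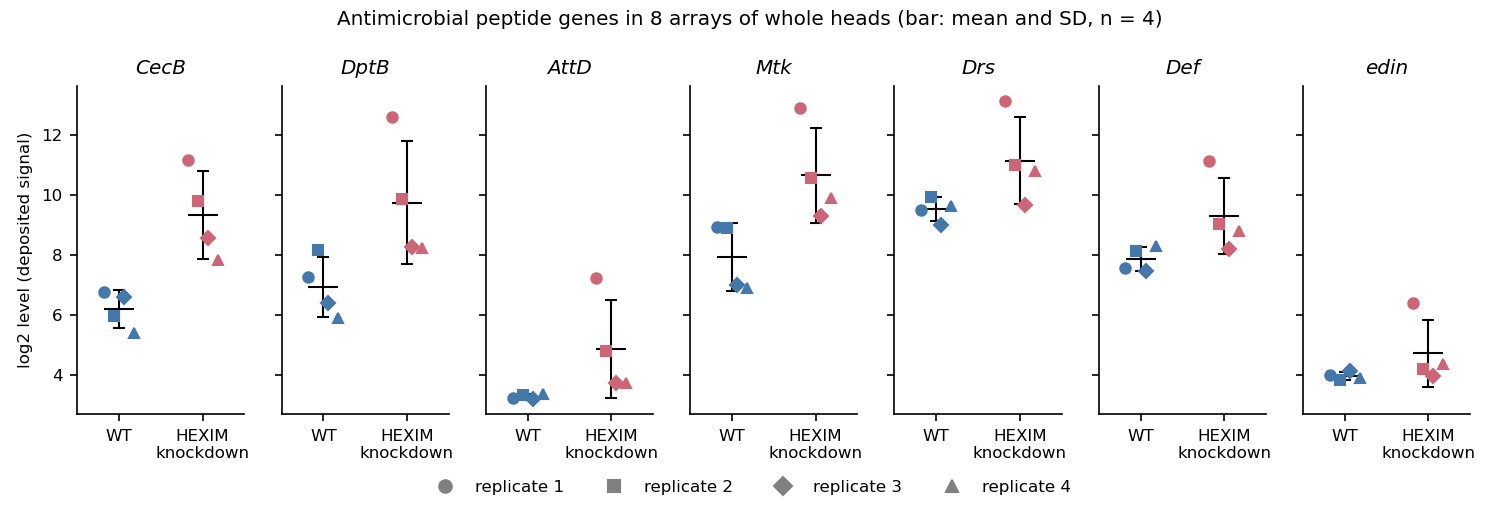
Log2 level (vertical axis) of the 7 measured antimicrobial peptide genes in 4 WT and 4 HEXIM knockdown arrays, each point 1 array with its replicate number as the symbol, and bars for the mean and SD (n = 4). HEXIM knockdown replicate 1 was the highest array in every panel, and the groups did not overlap for CecB, DptB, AttD and Mtk.

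CecB encodes a cecropin, a helical peptide that disrupts bacterial membranes. Its log2 level was 6.77, 5.98, 6.61 and 5.40 in WT replicates 1 to 4, and 11.16, 9.79, 8.56 and 7.83 in HEXIM knockdown replicates 1 to 4. The lowest HEXIM knockdown array stood 1.07 above the highest WT array, the widest separation among the 7 genes. The means were 6.19 ± 0.63 (SD, n = 4) and 9.34 ± 1.46 (SD, n = 4), which differ by 3.15 (SE 0.67, 95% interval 1.62 to 4.68), or 8.86-fold in signal. Its adjusted p was 0.181 from limma over all probe sets, and the exact two-sided permutation test of this gene alone gave p = 0.0286, the smallest that 4 arrays against 4 allow. Any gene without overlap between the groups has this p, as DptB, AttD and Mtk also did, so it restates the separation. CecB lies between CecA2 and CecC in the RefSeq annotation, and these close relatives have no probe set of their own name. Whether their RNA adds to the CecB signal was not tested.

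DptB encodes a diptericin, a glycine-rich peptide acting on Gram-negative bacteria. WT replicates 1 to 4 stood at log2 levels of 7.27, 8.17, 6.41 and 5.88, and HEXIM knockdown replicates 1 to 4 at 12.58, 9.88, 8.27 and 8.22. The groups almost touched, since HEXIM knockdown replicate 4 lay only 0.05 above WT replicate 2, and centring each array on its median made them overlap. The signal was 6.99-fold higher in HEXIM knockdown heads (95% interval 1.53 to 32.0), a log2 fold change of 2.81 with an adjusted p of 0.498 from limma. DptB had the largest SD of the 7 genes among HEXIM knockdown arrays, 2.05, and an SD of 1.00 among WT arrays.

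AttD encodes a member of the attacin family. Its log2 levels in WT were 3.23, 3.33, 3.18 and 3.37, in the lowest 6.71% of WT probe set means, where the array hardly separates a transcript from background. In HEXIM knockdown replicates 1 to 4 it stood at 7.22, 4.78, 3.74 and 3.73. Replicate 1 was thus far above the others, while the lowest HEXIM knockdown array was 0.36 above the highest WT array. The means differed by 1.59 (SE 0.70), with an adjusted p of 0.691 from limma, and by 0.81 without HEXIM knockdown replicate 1. Fold changes near background understate a change of RNA level.

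Mtk encodes metchnikowin, a proline-rich peptide active against fungi and Gram-positive bacteria. Its log2 levels were 8.93, 8.90, 7.01 and 6.90 in WT replicates 1 to 4, and 12.91, 10.56, 9.29 and 9.89 in HEXIM knockdown replicates 1 to 4. WT replicates 1 and 2 were close to each other and well above WT replicates 3 and 4, and the lowest HEXIM knockdown array stood 0.36 above the highest WT array. The log2 fold change was 2.73 (SE 0.82, 95% interval 0.85 to 4.60, adjusted p = 0.395 from limma). Its SD was 1.13 in WT and 1.58 in HEXIM knockdown heads, the smallest ratio of SDs among the 7 genes, 1.40.

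Drs encodes drosomycin, an antifungal peptide and the usual readout of Toll activity. Its log2 levels were 9.50, 9.94, 8.98 and 9.64 in WT and 13.13, 10.98, 9.68 and 10.79 in HEXIM knockdown replicates 1 to 4. HEXIM knockdown replicate 3 lay inside the WT range, and the other 3 lay above it. The log2 fold change was 1.63 (SE 0.63, 95% interval 0.18 to 3.08, adjusted p = 0.595 from limma), and the exact two-sided permutation test gave p = 0.0571.

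Def encodes defensin, a peptide acting on Gram-positive bacteria. It stood at log2 levels of 7.55, 8.14, 7.47 and 8.28 in WT and 11.12, 9.02, 8.20 and 8.81 in HEXIM knockdown replicates 1 to 4. As for Drs, only HEXIM knockdown replicate 3 fell into the WT range. The log2 fold change of Def was 1.43 (SE 0.56, 95% interval 0.14 to 2.72, adjusted p = 0.61 from limma), with p = 0.0571 in the exact two-sided permutation test.

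edin (elevated during infection) encodes a short secreted protein that is induced by bacterial infection through Imd. Its log2 levels were 3.99, 3.82, 4.12 and 3.90 in WT and 6.39, 4.20, 3.97 and 4.35 in HEXIM knockdown replicates 1 to 4. Only replicate 1 stood clearly apart, and the other 3 exceeded the WT mean of 3.96 by 0.02 to 0.39. The means differed by 0.77 (SE 0.48, 95% interval -0.32 to 1.86, adjusted p = 0.914 from limma), and by 0.22 without HEXIM knockdown replicate 1. The exact two-sided permutation test over all arrays gave p = 0.0857.

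**Figure D2:**
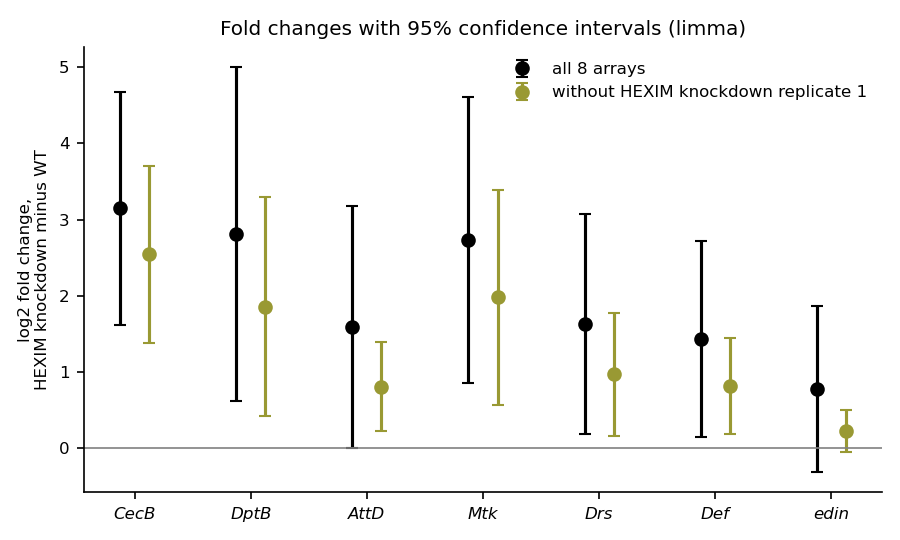
Log2 fold change of each measured gene, HEXIM knockdown minus WT (vertical axis), with its 95% confidence interval from limma, in all 8 arrays (black) and without HEXIM knockdown replicate 1 (olive). Each point was lower without that array, from 3.15 to 2.54 for CecB and from 0.77 to 0.22 for edin, and the intervals became narrower.

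The HEXIM knockdown arrays differed widely among themselves. HEXIM knockdown replicate 1 stood at least 1 above the next array of its group in all 7 genes, by 1.36 (CecB) to 2.70 (DptB), whereas 1.13% of all probe sets (212) showed such a gap. The SD over HEXIM knockdown arrays was at least 1 in all 7 genes, against 0.799% of all probe sets. It was larger than the SD over WT arrays in all 7, against 62.4% of all probe sets, and at least 2 times as large in 6, against 18.7%. The median SD ratio was 3.08 for the 7 genes and 1.19 over all probe sets, whose median SD was 0.18 in HEXIM knockdown and 0.15 in WT arrays. AttD and edin, both near background in WT, had the largest ratios, 18.9 and 8.79. Replicate 1 enters every one of these HEXIM knockdown SDs, and SDs without it were not taken. Over replicates 2 to 4, Mtk ran from 9.29 to 10.56, a narrower range than 6.90 to 8.93 in WT. CecB ran from 7.83 to 9.79 there, a wider range than 5.40 to 6.77 in WT.

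**Figure D3:**
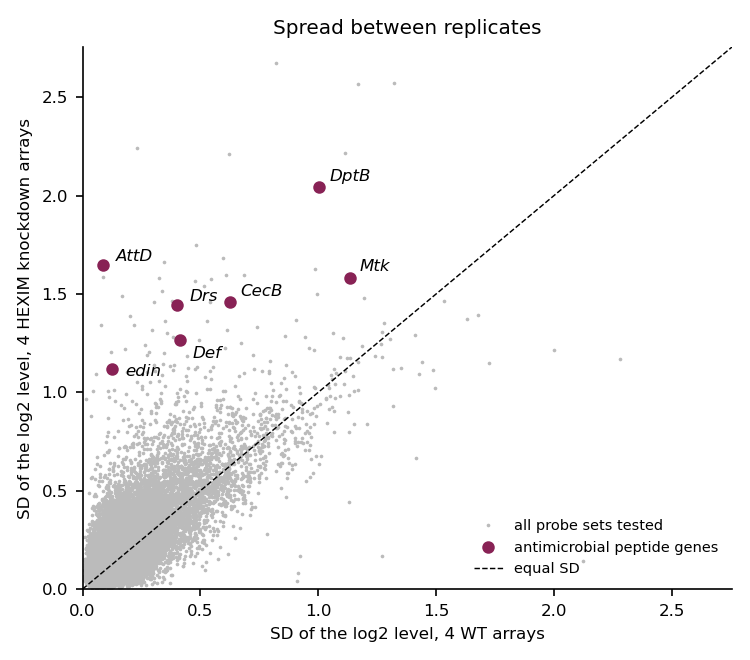
SD of the log2 level over 4 HEXIM knockdown arrays (vertical axis) against the SD over 4 WT arrays (horizontal axis) for all probe sets tested (grey) and the 7 antimicrobial peptide genes (purple), with a dashed line of equal SD. All 7 genes lay above the line, with an SD of 1.12 (edin) to 2.05 (DptB) among HEXIM knockdown arrays.

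Array by array, HEXIM knockdown replicate 1 exceeded the WT mean by 2.43 (edin) to 5.65 (DptB) on the log2 scale, and replicate 2 by 0.24 (edin) to 3.61 (CecB). Replicate 2 was the second highest HEXIM knockdown array in 6 of the 7 genes and lay above every WT array in all 7. Replicate 4 also lay above every WT array in all 7 genes, and replicate 3 in 4. The order of replicates 3 and 4 differed between genes. Replicate 3 was 0.73 above replicate 4 for CecB and within 0.05 of it for DptB and AttD, whereas it was below it by 0.59 for Mtk, 1.12 for Drs, 0.61 for Def and 0.38 for edin. The mean level over the 7 genes was 10.64, 8.46, 7.39 and 7.66 in HEXIM knockdown replicates 1 to 4 and 6.20 to 6.90 in WT arrays.

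**Figure D4:**
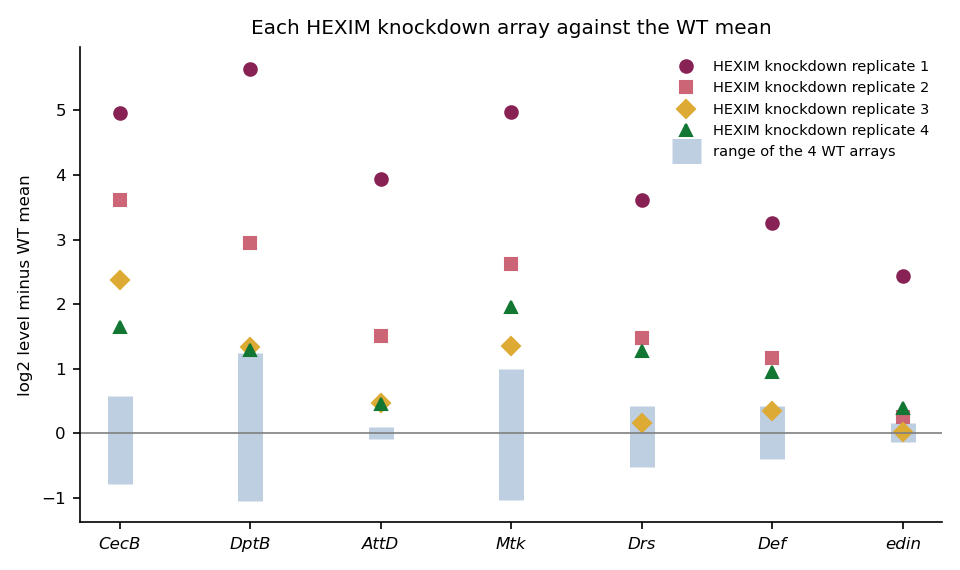
Log2 level of each HEXIM knockdown array minus the WT mean (vertical axis) for the 7 measured genes, with the range of the 4 WT arrays as a blue bar. Replicate 1 was highest for every gene, at 2.43 (edin) to 5.65 (DptB), and replicate 3 lay within the WT range for Drs, Def and edin.

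Without HEXIM knockdown replicate 1 the log2 fold changes were 2.54 for CecB, 1.98 for Mtk, 1.86 for DptB, 0.97 for Drs, 0.82 for Def, 0.81 for AttD and 0.22 for edin. None passed the test, with adjusted p values from 0.171 (CecB) to 0.861 (edin). The 95% intervals, not adjusted for the number of probe sets, lay above 0 in all but edin, as in the fit to all arrays. In that fit, 2.84% of all probe sets were higher at an unadjusted p under 0.05. The share without HEXIM knockdown replicate 1 was not taken, so the intervals without it have no background beside them. Under array weights, which gave HEXIM knockdown replicate 2 a weight of 9.03 and the other arrays 0.27 to 1.59, CecB (adjusted p = 0.00329) and Mtk (adjusted p = 0.0483) passed the test from limma, as did 1.37% of all probe sets in that direction (257, against 27 without weights), and DptB came to an adjusted p of 0.0563.

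The 7 genes varied together across the 8 arrays, with Pearson's r of the log2 levels from 0.77 (CecB with edin) to 0.98 (Drs with Def, and DptB with Mtk) and a median of 0.90 over 21 pairs. Spearman's rho was 0.50 to 0.95. The pairs share the same 8 RNA samples, the genotype difference and the high replicate 1, and the r of the 7 genes with all other probe sets had a median of -0.10. Of the 28 protein-coding genes within 2 places of a measured member in the RefSeq annotation (assembly Release 6), 21 had a named probe set, and their log2 fold changes lay between -0.38 and 0.16. None of these measured neighbours passed the test (lowest adjusted p = 0.242 from limma). The neighbours without a named probe set include the antimicrobial peptide genes CecA1, CecA2 and CecC near CecB, and DptA beside DptB.

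Outside the members, the genes with the most similar profile were chosen by Pearson's r over the 8 arrays with the mean level of the 7 genes, among 2088 genes that ranged over at least 1 on the log2 scale. They were CG14191 (r = 0.990), CG11425 (0.986), CG6675 (0.985), MtnD (0.985), CG4757 (0.984), hll (0.979), CG30083 (0.977) and CG42807 (0.976). MtnD encodes a metallothionein, a small protein that binds heavy metals. It stood at 5.56 to 5.97 in WT arrays and at 9.17, 7.14, 6.08 and 6.39 in HEXIM knockdown replicates 1 to 4. hll had the largest log2 fold change of these genes, 1.78, from 5.47 to 5.84 in WT to 9.48, 7.46, 6.51 and 6.16 in the HEXIM knockdown arrays. None of the 8 passed the test (adjusted p of 0.375 to 0.679 from limma). Of all other probe sets, 169 (0.901%) had an r of at least 0.9 with the mean of the members.

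Of 17 other antimicrobial peptide genes listed, 8 had a probe set of their own name, and none passed the test. Listericin, a peptide gene known to respond to JAK/STAT and Imd signals, had a log2 fold change of 1.25 (adjusted p = 0.855 from limma), with log2 levels of 10.78, 8.64, 7.04 and 8.15 in HEXIM knockdown replicates 1 to 4 and 6.84 to 7.91 in WT arrays. The drosomycin-like gene Drsl5 had a log2 fold change of 0.49, and HEXIM knockdown replicate 1 stood at 11.03, its 3 companions at 8.26 to 9.11 and WT at 8.61 to 8.95. Drsl6 and Drsl2 had 0.14 and -0.21, and Drsl6 lay near background in every array, at 3.66 to 4.16. The median of these 8 genes was 0.03. AttA, AttB, AttC, CecA1, CecA2, CecC and DptA were not analysed here.

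Bomanins are short secreted peptides induced through Toll and needed for resistance to fungi and Gram-positive bacteria. Of 21 Bomanin and other short induced peptide genes, 10 were measured, 8 with a positive log2 fold change, and none passed the test (median 0.29). BomBc3 had 1.11, with 12.57, 10.90, 9.79 and 10.31 in HEXIM knockdown replicates 1 to 4 and 9.42 to 10.11 in WT. BomBc2, BomT3 and BomS2 had 0.55, 0.51 and 0.33 (adjusted p of 0.748 to 0.999 from limma for these 4). HEXIM knockdown replicate 1 was the highest of its group in all 10, and without it the median was 0.03.

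Among 15 genes of Imd signalling, 12 were measured, and none passed the test. Rel, which encodes Relish, had the largest log2 fold change, 0.83 (SE 0.22, adjusted p = 0.308 from limma). Its log2 levels were 8.97 to 9.52 in WT and 10.57, 10.23, 9.80 and 9.56 in HEXIM knockdown replicates 1 to 4, without overlap. ben, akirin and Diap2, which encode a ubiquitin-conjugating enzyme, a nuclear cofactor of Relish and a ubiquitin ligase, had -0.26, -0.13 and -0.11. The median of the 12 was -0.02.

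Several inhibitors of Imd are themselves targets of the pathway. Of 11 listed, 9 were measured, 7 with a positive log2 fold change and a median of 0.88, and none passed the test. PGRP-LB, an amidase that degrades peptidoglycan, had 1.01 (adjusted p = 0.263 from limma), PGRP-LF, a receptor that blocks PGRP-LC, 1.06 (adjusted p = 0.286) and pirk, an inhibitor of Imd receptors, 0.88 (adjusted p = 0.286). In each of these genes every HEXIM knockdown array lay above every WT array. pirk stood at 8.15, 8.20, 7.66 and 7.31 in HEXIM knockdown replicates 1 to 4 and at 6.50 to 7.18 in WT, with replicate 1 no longer alone at the top. PGRP-SB1, another amidase gene, had 1.79 (adjusted p = 0.678), with HEXIM knockdown replicate 1 at 11.62, the other 3 of its group at 7.78 to 9.18 and WT at 6.70 to 7.80. Without HEXIM knockdown replicate 1 the median of the 9 genes was 0.43.

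Of 19 genes of Toll recognition and signalling, 15 were measured, 12 with a positive log2 fold change and a median of 0.17, and none passed the test. Traf6, an adaptor of the pathway, had 0.77 (SE 0.12, adjusted p = 0.0607 from limma) and an SD of only 0.07 in HEXIM knockdown heads, at 8.61, 8.69, 8.66 and 8.78. cact, the IkB inhibitor that Toll removes, had 0.53 in the brighter of its 2 probe sets, with no overlap. dl, which encodes Dorsal, had 0.30 and Myd88, an adaptor at the receptor, -0.50 (adjusted p of 0.54 and 0.597).

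**Figure D5:**
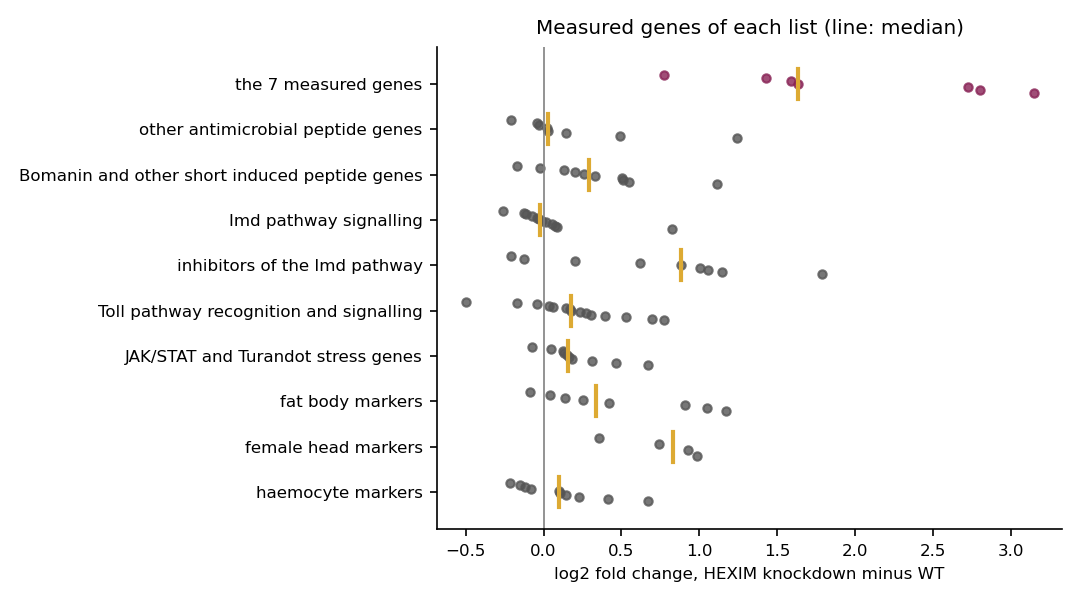
Log2 fold change, HEXIM knockdown minus WT (horizontal axis), of the measured genes in each list, each point 1 gene read by its brightest probe set and the yellow line the median. The 7 antimicrobial peptide genes had a median of 1.63, the Imd inhibitors one of 0.88 and the Imd signalling genes one of -0.02.

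Genes of JAK/STAT signalling and the Turandot stress peptides had a median log2 fold change of 0.16 over 10 measured of 18, and none passed the test. Their log2 fold changes ran from -0.07 to 0.67. HEXIM knockdown replicate 1 was the highest of its group in 4 of the 10, by at least 1 in 2 of them. Without it the median was 0.08. TotB had 0.47, with 5.46 to 5.99 in HEXIM knockdown and 4.98 to 5.38 in WT arrays (adjusted p = 0.427 from limma), and TotF, vir-1 and upd1 had 0.16, 0.31 and 0.13. upd1 lay near background in every array, at 3.44 to 3.89, which limits its fold change.

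The fat body is the main source of these peptides. Of 13 listed marker genes, 8 were measured, 7 with a positive log2 fold change and a median of 0.34, and none passed the test. The log2 of their summed signal ran from 12.98 to 13.996 in WT and from 13.76 to 14.67 in HEXIM knockdown arrays, highest in HEXIM knockdown replicate 1. Fbp1 and Fbp2, named as fat body proteins, had 1.17 and 1.05 (adjusted p of 0.243 and 0.351 from limma). HEXIM knockdown replicate 1 was the highest of its group in 6 of the 8 markers, against 22.4% of all probe sets. It was the lowest in Fbp1 and Fbp2, at 8.54 and 9.54. It stood at least 1 above the next array of its group in 1 of the 8 markers, but in all 7 antimicrobial peptide genes. Lsp2, a storage protein gene, had 0.91 and Tsf1, a transferrin gene, 0.42 (adjusted p of 0.582 and 1.00). The yolk protein and fit genes, markers of female heads, were all 4 measured. Each was highest in HEXIM knockdown replicate 1 among HEXIM knockdown arrays, by less than 1, and lowest in WT replicate 3. Their log2 summed signal was 12.65 in WT replicate 3, 14.35 to 14.66 in the other WT and 14.08 to 15.29 in HEXIM knockdown arrays. Haemocyte markers, all 10 measured, overlapped between the groups in summed signal, at 11.26 to 11.63 in WT and 11.37 to 11.58 in HEXIM knockdown arrays. Of the prophenoloxidase genes of crystal cells, PPO2 had 0.67 (adjusted p = 0.136) and was highest in HEXIM knockdown replicate 1, at 7.96, whereas PPO1 had 0.41 (adjusted p = 0.893) and was lowest there, at 6.20. crq, a phagocytic receptor gene, had -0.22 and Pxn 0.11. The groups did not overlap for PPO2, which was higher, and crq, which was lower, a pattern of 5.35% of all probe sets in either direction. The brightest genes, crq and vkg, with mean levels of 9.72 and 9.71, weigh most in the summed signal. The part of the fat body and female markers in the levels of the antimicrobial peptide genes was not tested. The log2 fold changes of the 7 genes averaged 2.01 over all arrays, 1.31 without HEXIM knockdown replicate 1, in which the fat body and female markers were highest in summed signal, 1.92 without WT replicate 3, and 2.28 without the 3 arrays of lowest middle relative to 3' level.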

How the data were processed

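Total RNA of whole adult heads was measured on Affymetrix Drosophila_2 arrays. The authors deposited log2 values. Per the labels' processing notes these came from RMA in Expression Console, whereas the methods name GCRMA, and versions are not given in the sources used here. The log2 values were used as deposited. Groups followed the labels. HEXIM knockdown minus WT was fitted by lmFit and eBayes (limma 3.58.1, R 4.3.3) to 18769 probe sets, after 183 control probe sets were left out of 18952, with p-values adjusted after Benjamini and Hochberg and called under 0.05. The annotation gives 1 symbol to 13646 probe sets, several to 402 and none to 4721. Single genes were also compared by an exact two-sided permutation test. The fit was tested on simulated data. Tables and figures were made in Python 3.11.15 (numpy 2.4.6, pandas 2.3.3, scipy 1.17.1, matplotlib 3.10.9). The alternatives were leaving out arrays, a replicate block, quantile normalization, median centring, a filter on dim probe sets, array weights, a robust eBayes trend and keeping control probe sets.

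The members and gene lists were chosen with earlier results of these data known, so that counts over them are descriptions. Every member is named, and from the lists up to 4 genes of smallest p. Of several probe sets of a gene, the brightest on average over the 8 arrays was read. The number of arrays limits the precision.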

Additional observations from a re-analysis of the deposited data

Results flagged for a closer look

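In HEXIM knockdown heads, edin stood at 6.39 in replicate 1 and at 3.97 to 4.35 in the other 3 arrays, a gap of 0.844 of the whole range of the group. It was the 1 group of 16 tested, the measured genes and their mean in each genotype, in which 1 array stood so far from the others, where chance gives about 1 in 20, or 0.8 of 16.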

How the results depend on the processing

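The 7 genes were refitted under 16 other settings and 1 added after seeing the data (without the 3 arrays of lowest middle relative to 3' control level). In 5 of these the log2 fold change cannot move, and under the other 12 all 84 values were positive. Array weights took CecB (3.76, adjusted p = 0.00329) and Mtk (2.72, adjusted p = 0.0483) past the threshold, and no other setting changed a call among the 7 genes, while the adjusted p of CecB was 0.0829 to 0.494 without 1 array. Without 1 array the log2 fold changes ranged from 2.54 to 3.65 (CecB), 1.86 to 3.31 (DptB), 0.81 to 1.97 (AttD), 1.98 to 3.18 (Mtk), 0.97 to 2.12 (Drs), 0.82 to 1.79 (Def) and 0.22 to 1.02 (edin), and their mean from 1.31 to 2.40, each lowest without HEXIM knockdown replicate 1. The number of genes without overlap was 4 to 7 without 1 array, 7 without HEXIM knockdown replicate 3, which follows from its being the one array of its group not above every WT array, 3 (CecB, AttD and Mtk) after median centring and 5 after quantile normalization. Leaving out an array makes a lack of overlap easier for any probe set. The share over all probe sets was not taken under these settings, so these counts have no background beside them. The 48 calls over all probe sets became 10 to 48 without 1 array (10 to 13 without any WT array or HEXIM knockdown replicate 2 or 3, 46 and 48 without replicates 1 and 4), 507 with array weights, 29 with a log2 fold change of at least 1, and 3 without the 3 arrays of low middle level, a fit on 5 arrays. The deviations of same-numbered arrays correlated at -0.11, 0.57, -0.19 and -0.72, and 2 of 8 arrays correlated best with their own number. With 4 arrays in each group this does not settle whether replicate numbers pair the samples. A replicate block left 1 call and no call among the 7 genes, with an adjusted p of 0.260 from limma for CecB and Mtk. Blocking lowered the SE of all 7 log2 fold changes. It fell from 0.82 to 0.38 for Mtk, from 0.67 to 0.44 for CecB and from 0.96 to 0.64 for DptB. After median centring, 21 calls were higher and 24 lower. Where not stated, the cause was not tested. AttD and edin lay near background in WT, which limits their fold changes.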
